A study of Mus musculus with 4 samples.

Results

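Enteroendocrine gene expression was examined in intestinal crypts with and without CREPT, an RNA polymerase II binding protein encoded by Rprd1b. The genes were 33 listed enteroendocrine genes: 10 hormone genes (9 peptide hormones and Tph1, the serotonin-synthesizing enzyme), 10 genes of the secretory granule and of release, 2 surface receptor genes and 11 transcription factors of the lineage. All 33 were found by gene symbol among the 53845 rows of the count table, all are protein-coding, and all 33 were among the 17504 genes with enough counts to be tested. RNA-seq had been performed on 2 libraries of WT crypts and 2 libraries of Vil-CREPTKO crypts, all from C57BL/6 mice without injury. In Vil-CREPTKO mice a Cre recombinase under the villin promoter, which is active in the intestinal epithelium as a whole and not in enteroendocrine cells alone, deletes a floxed part of Rprd1b. The study describes a mating of Villin-Cre, floxed mice with floxed mice, whose Cre-negative young carry floxed alleles, but the sources used here do not state that the WT mice of these libraries came from it. Crypts were taken from the small intestine, with no stretch named, and the study describes 2 mice per genotype for this RNA-seq, as many as the libraries. An age in weeks is given for the mice of the study as a whole, both sexes included, and not for each library. The methods call the replicates biological, and p-values measure the spread between these libraries.

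Enteroendocrine cells are sparse, hormone-secreting cells of the gut epithelium. They arise in the crypt from secretory progenitors that switch on the transcription factor Neurog3, and a cascade of later factors (among them Neurod1, Pax4, Pax6, Nkx2-2, Isl1, Insm1, Rfx6, Fev and Lmx1a) steers them towards subtypes that differ in the hormone they make. The hormones are cut from precursors inside dense-core granules built with chromogranins and secretogranins, and are released when nutrients or irritants are sensed at the cell surface. In a bulk crypt library, fewer cells of this type and less RNA per cell cannot be told apart.

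Among the 10 hormone genes, 6 had groups that did not overlap (60.0%, against 45.1% of all genes tested), and Tph1 was 1 of them. The sequence upstream of the start sites of the other such genes, all peptide hormone genes, is shown first. They were Gip, Cck and Gcg, higher in both Vil-CREPTKO libraries, and Ghrl and Sst, lower in both. Each run is the 250 bases before the RefSeq transcription start on the gene's own strand (GRCm38.p6), 5′ to 3′, and capitals mark each E-box (CANNTG, which reads the same on both strands), the motif bound by basic helix-loop-helix factors such as Neurog3 and Neurod1. The windows lie at chr11:96024295-96024544 for Gip (plus strand), chr9:121495695-121495944 for Cck, chr2:62483654-62483903 for Gcg, chr6:113719912-113720161 for Ghrl and chr16:23890845-23891094 for Sst (all minus strand). For Ghrl, 4 windows were listed and the window nearest the GENCODE start was taken.
Gip: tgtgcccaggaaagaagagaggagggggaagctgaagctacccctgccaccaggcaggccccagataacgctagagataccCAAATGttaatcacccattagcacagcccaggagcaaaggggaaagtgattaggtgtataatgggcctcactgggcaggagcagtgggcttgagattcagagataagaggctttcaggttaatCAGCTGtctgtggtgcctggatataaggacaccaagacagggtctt
Cck: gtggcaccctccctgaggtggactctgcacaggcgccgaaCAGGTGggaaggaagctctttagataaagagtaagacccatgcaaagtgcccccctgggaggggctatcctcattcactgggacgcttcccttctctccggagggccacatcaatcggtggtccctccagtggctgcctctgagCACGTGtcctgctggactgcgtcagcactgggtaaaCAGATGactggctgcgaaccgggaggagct
Gcg: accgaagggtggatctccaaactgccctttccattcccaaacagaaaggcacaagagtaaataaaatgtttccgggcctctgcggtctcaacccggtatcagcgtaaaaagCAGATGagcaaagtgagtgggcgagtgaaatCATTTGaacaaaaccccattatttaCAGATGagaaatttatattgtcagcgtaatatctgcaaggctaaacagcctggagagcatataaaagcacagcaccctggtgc
Ghrl: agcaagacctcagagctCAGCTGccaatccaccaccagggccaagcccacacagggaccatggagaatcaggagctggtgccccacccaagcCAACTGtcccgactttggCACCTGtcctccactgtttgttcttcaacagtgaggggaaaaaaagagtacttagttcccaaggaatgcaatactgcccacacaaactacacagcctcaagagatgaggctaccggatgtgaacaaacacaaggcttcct
Sst: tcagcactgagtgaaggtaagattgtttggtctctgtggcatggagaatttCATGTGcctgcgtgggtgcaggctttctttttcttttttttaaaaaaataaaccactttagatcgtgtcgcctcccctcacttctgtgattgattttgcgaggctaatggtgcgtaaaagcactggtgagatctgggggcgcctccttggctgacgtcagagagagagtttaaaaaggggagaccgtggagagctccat

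E-boxes were present in all 5 windows, with 2 in Gip, 3 in Cck, 3 in Gcg, 3 in Ghrl and 1 in Sst. In Gip they began 169 and 46 bases before the start, and in Sst the E-box began 199 bases before it. The form CAGATG, an E-box preferred by factors of the Neurod family, was searched on both strands. It was found once in Cck, 30 bases before the start, and at 139 and 83 bases before the start in Gcg. Gip, Ghrl and Sst held it on neither strand. Tph1, the other hormone gene whose groups did not overlap, higher in Vil-CREPTKO, held no E-box in its window, so that 5 of the 6 such genes held one. The hormone genes whose groups overlapped, Sct, Nts, Pyy and Tac1, each held at least 1 E-box as well, and Sct and Tac1 held CAGATG. E-boxes were thus not particular to the genes whose groups did not overlap. Windows were found for 27 of the 33 genes, and not for Pax4, Insm1, Cpe, Slc18a1, Gfra3 and Trpa1. The windows of Cplx2, Nkx2-2 and Rfx6 are counted among the 27. Their starts lay 68793, 7841 and 7762 bases from the GENCODE starts of these genes. An E-box was present in 21 of the 27 (77.8%) against 66.2% of the 32851 windows of the table, and CAGATG, on either strand, in 6 of the 27 (22.2%) against 14.4%. A match of letters is a description and not a binding site.

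The deleted gene was read in every library as a check of the labels. Rprd1b was at 60.5 and 61.6 CPM (counts scaled to the library size by TMM) in WT whereas Vil-CREPTKO libraries had 26.3 and 29.0 CPM (log2 fold change -1.14, SE 0.12, adjusted p 0.0041 in edgeR). Total counts were 47241049 to 49369315 per library. WT replicate 2 stood apart by sex: it had 863 CPM of Xist and no read from a Y-linked gene, whereas Xist was at 0.299 to 0.530 CPM and Y-linked genes summed to 148 to 164 CPM in the other 3. Vil-CREPTKO replicate 1 had the highest mitochondrial share, 10.2% of counts against 6.75% to 7.62% in the others. Values without each library are given below beside the results that turn on them.

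Across the 33 enteroendocrine genes, 0 were called by edgeR's quasi-likelihood test, a call being a Benjamini-Hochberg adjusted p under 0.05 among the 17504 genes and an absolute log2 fold change over 1. Calls were made for 1.64% of all genes tested, 0.297% higher and 1.34% lower in Vil-CREPTKO. Dropping the fold change threshold left the count of enteroendocrine genes at 0, where 2.71% of all genes passed. At an unadjusted p under 0.05, 12 of the 33 were reached (36.4%, against 14.3% of all genes): 6 higher, against 4.49% of all genes, and 6 lower, against 9.76%. DESeq2, the tool of the study, called 2 of the 33, Ghrl and Cplx2, both lower, where by the same thresholds it called 1.79% of all genes lower and 0.508% higher. The groups did not overlap at 16 of the 33 genes (48.5%), 8 higher and 8 lower in Vil-CREPTKO, near the share among all genes tested (45.1%, or 21.0% higher and 24.2% lower). The median log2 fold change was -0.11 over the 33 genes and -0.0060 over all genes tested. Thus the enteroendocrine genes lay on both sides of 0, with 21 negative and 12 positive, where 50.9% of all genes tested were negative.

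The count at an unadjusted p varied with the setting. It was unchanged without Vil-CREPTKO replicate 1 and fell without any other library. The fall was largest without WT replicate 2, the library of the other sex, where only lower genes were reached. Such fits leave 1 library in a group, and the share of all genes at these settings is not given here. Scaling by library size alone gave a count of 7 in place of 12, of which 6 were lower and 1 higher. All genes moved with that scaling: their median log2 fold change was -0.098, against -0.006 with TMM. The share of all genes reached with that scaling is not given here either.

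**Figure D1:**
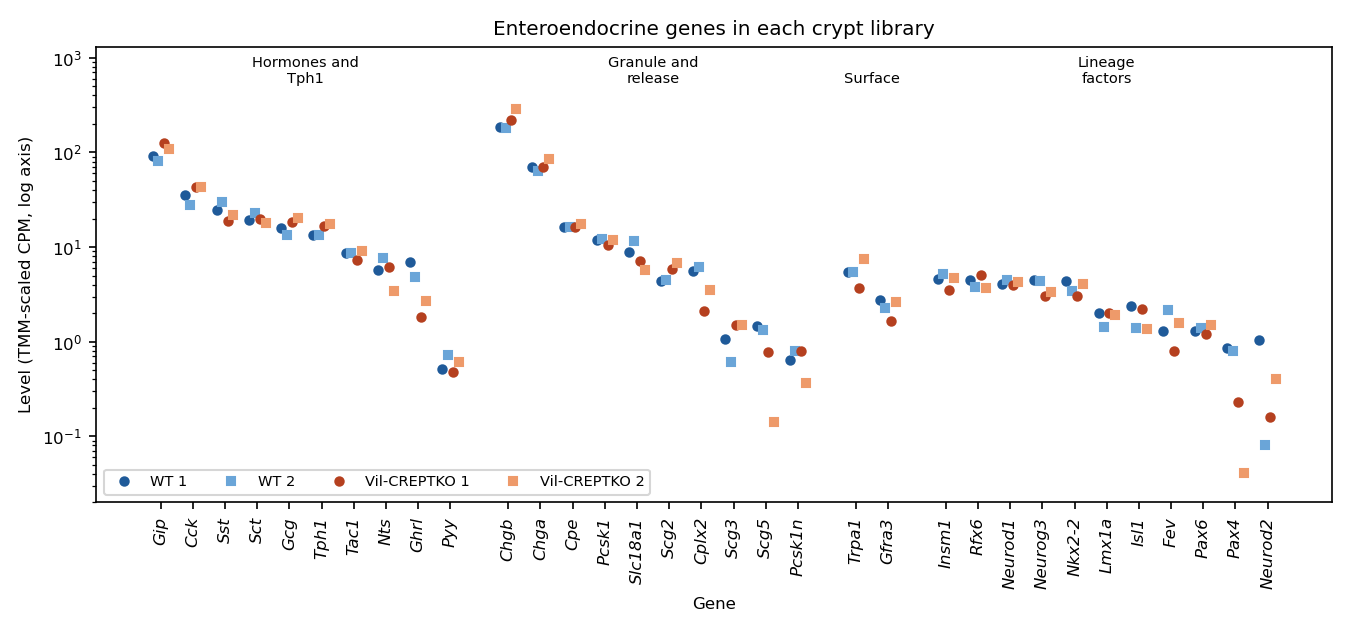
Level of each of the 33 enteroendocrine genes in each crypt library, in TMM-scaled CPM on a log axis, with circles for replicate 1 and squares for replicate 2 (blue, WT and red or orange, Vil-CREPTKO). Genes are grouped by role and CPM is not divided by length. Hormone and granule genes span from under 1 CPM (Pyy) to 291 CPM (Chgb), the lineage factors lie at or below 5.18 CPM, and the Ghrl, Cplx2, Scg5 and Pax4 points of Vil-CREPTKO lie below those of WT.

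The hormones were read first, for which levels can be compared between genes only per length. In TPM (counts divided by the union exon length and scaled to a common total), Gip, the incretin of K cells, was the most abundant hormone transcript, with a mean of 311 TPM in WT and 368 TPM in Vil-CREPTKO. In WT it was followed by Sst (92.5 TPM), Sct (79.9 TPM), Cck (59.9 TPM) and Gcg (24.4 TPM), and then by Ghrl (13.5 TPM), Nts (13.2 TPM), Tac1 (6.27 TPM), Tph1 (5.35 TPM) and Pyy (2.40 TPM). In Vil-CREPTKO Cck (72.1 TPM) came before Sct (63.2 TPM) and Sst (61.3 TPM), and Ghrl, at 4.63 TPM, came after Tph1 (6.05 TPM) and Tac1 (5.28 TPM). Neighbours such as Ghrl and Nts in WT, or Sct and Sst in Vil-CREPTKO, were closer than the libraries of a group.

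Of the 10 hormone genes, 0 were called. At an unadjusted p under 0.05, 4 were reached as higher and 2 as lower (60.0%, against 14.3% of all genes, 4.49% higher and 9.76% lower). Gip (chr11:96024545-96030831, plus strand) was at 91.6 and 81.6 CPM in WT and at 125 and 109 CPM in Vil-CREPTKO. Both Vil-CREPTKO libraries were above both WT libraries, with a log2 fold change of 0.43 (SE 0.13, 95% interval 0.13 to 0.73, adjusted p 0.155 in edgeR). Cck (chr9:121489824-121495694, minus strand), whose product empties the gallbladder and calls for pancreatic enzymes, was at 35.5 and 27.7 CPM in WT and at 43.5 and 43.2 CPM in Vil-CREPTKO. Its Vil-CREPTKO libraries were nearly equal and lay above WT (0.46, SE 0.15, adjusted p 0.176 in edgeR), though without WT replicate 2 the difference was 0.29.

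Gcg (chr2:62474530-62483650, minus strand), which encodes the precursor of the L cell incretin GLP-1, was at 16.0 and 13.4 CPM in WT and at 18.4 and 20.5 CPM in Vil-CREPTKO. The groups did not overlap, and the log2 fold change was 0.40 (SE 0.16, adjusted p 0.301 in edgeR). It was 0.53 without WT replicate 1 and 0.28 without WT replicate 2. Tph1, the rate-limiting enzyme of serotonin synthesis in enterochromaffin cells, was at 13.3 and 13.5 CPM in WT and at 16.8 and 17.5 CPM in Vil-CREPTKO. Replicates of a group lay close together here, and the difference of 0.36 (SE 0.15, adjusted p 0.320 in edgeR) stayed between 0.33 and 0.39 with any library left out. Gip, Cck, Gcg and Tph1 kept a positive sign in all 12 alternative settings, and 0 of the 4 were called in any of them.

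Ghrl had the most negative log2 fold change of the hormone genes. It encodes ghrelin, the appetite hormone of X cells, and lies at chr6:113716119-113719880 on the minus strand. Its counts were 352 and 238 in WT but 79 and 133 in Vil-CREPTKO, or 6.90 and 4.84 CPM against 1.82 and 2.71 CPM. Both Vil-CREPTKO libraries were below both WT libraries, and the log2 fold change was -1.37 (SE 0.31, 95% interval -2.07 to -0.67). In edgeR its adjusted p, 0.0575, was the lowest of the 33 genes and just missed the threshold. Ghrl was called in 6 of the 12 alternatives: DESeq2 (adjusted p 0.0034), scaling by library size, no filter, the likelihood ratio test, without WT replicate 2 (-1.60, adjusted p 0.0153) and without Vil-CREPTKO replicate 2 (-1.68, adjusted p 0.0217). Over all 12 the log2 fold change ran from -1.68 to -1.09 and the adjusted p from 0.00029 to 0.145. The exons of Ghrl overlap those of Gm26982 and Gm44033 on the opposite strand, whose reads cannot be told from its own since no strand setting of the counting is stated. The counts of Gm26982 were 104 and 104 in WT but 61 and 99 in Vil-CREPTKO, and those of Gm44033 were 12 and 1 in WT but 20 and 5 in Vil-CREPTKO.

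Sst (chr16:23889573-23890958, minus strand), whose product somatostatin restrains the release of other gut hormones, was at 24.4 and 30.0 CPM in WT and at 18.6 and 21.8 CPM in Vil-CREPTKO. The groups did not overlap, with a log2 fold change of -0.43 (SE 0.16, adjusted p 0.262 in edgeR) that was -0.27 without WT replicate 2. Nts, which encodes neurotensin, was at 5.74 and 7.66 CPM in WT and at 6.14 and 3.42 CPM in Vil-CREPTKO. Vil-CREPTKO replicate 2 alone was low, so that the difference of -0.49 (SE 0.31, adjusted p 0.544 in edgeR) was -0.97 without replicate 1 and -0.12 without replicate 2 of that group.

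The other hormone genes overlapped between the groups. Sct, which encodes secretin, the signal for pancreatic bicarbonate, was at 19.3 and 22.6 CPM in WT and at 19.8 and 17.9 CPM in Vil-CREPTKO (-0.15, SE 0.15, adjusted p 0.728 in edgeR), a difference that was -0.034 without WT replicate 2. Tac1, the substance P precursor of enterochromaffin cells, was at 8.62 and 8.70 CPM against 7.23 and 9.14 CPM (-0.080, SE 0.20). Pyy, a hormone of the distal gut, was the scarcest, at 0.509 and 0.731 CPM against 0.483 and 0.611 CPM, and its 95% interval ran from -1.36 to 1.01, so that a log2 difference of that size was not detectable at this depth.

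The make-up of the hormone transcripts was then read as shares of the summed peptide hormone TPM, which set the hormones against each other within a library. Gip took 53.5% and 49.5% in WT but 62.0% and 58.2% in Vil-CREPTKO. Gip, Cck and Gcg together took 68.7% and 62.1% in WT against 77.5% and 75.4% in Vil-CREPTKO. Sst took 13.6% and 17.3% against 8.80% and 11.1%, and Ghrl 2.56% and 1.87% against 0.573% and 0.922%. Sct, at 12.0% and 14.6% against 10.5% and 10.2%, was lower in share as well. The groups did not overlap in any of these shares, but shares of a whole are bound to each other, and with 2 libraries per group an exact permutation test cannot go below p = 0.333, so they were not tested.

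**Figure D2:**
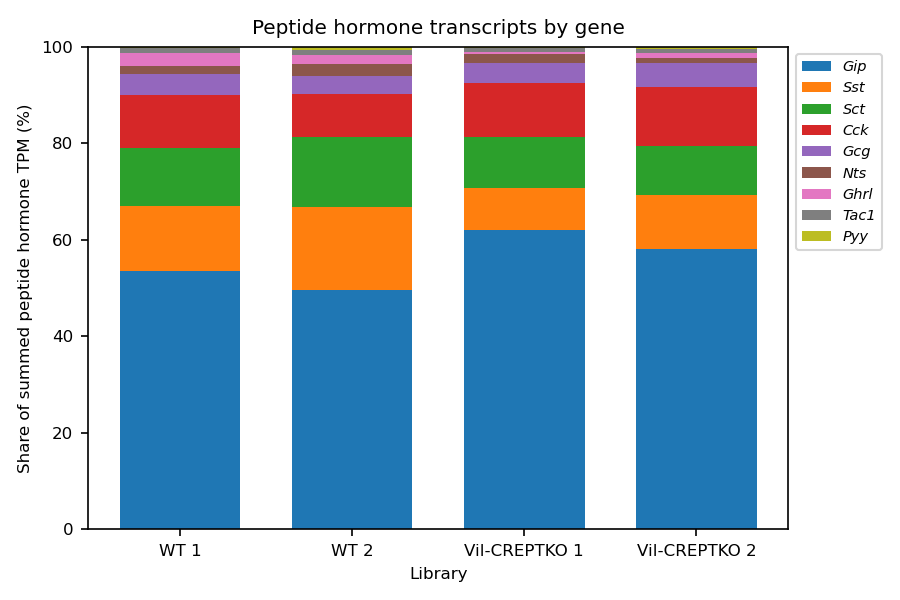
Share of each peptide hormone gene in the summed TPM of the 9 peptide hormone genes, in percent, for each crypt library (stacked bars, 1 per library). Gip takes 49.5% to 53.5% of the bar in WT and 58.2% to 62.0% in Vil-CREPTKO, and the Sst and Ghrl bands are narrower in both Vil-CREPTKO libraries.

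Setting each hormone against Chga, the pan-endocrine chromogranin, gave a like picture for Ghrl and a weaker picture for Gip. Ghrl had 0.0985 and 0.0764 reads per Chga read in WT but 0.0261 and 0.0321 in Vil-CREPTKO. Sst was lower too, at 0.348 and 0.474 against 0.267 and 0.259. So were Tac1 (0.123 and 0.137 against 0.104 and 0.108) and Pyy (0.00728 and 0.0116 against 0.00693 and 0.00725), though both overlapped in CPM. Chga itself was at 84.3 CPM in Vil-CREPTKO replicate 2 and at 63.3 to 70.0 CPM in the other libraries, which lowers every ratio of that library. Gip overlapped, with 1.31 and 1.29 reads in WT next to 1.79 and 1.29 in Vil-CREPTKO. Cck (0.507 and 0.437 against 0.623 and 0.513) and Gcg (0.229 and 0.212 against 0.263 and 0.243) were above WT by margins no wider than the gap between replicates of a group.

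Genes of the granule and of release differed in both directions, with a median log2 fold change of -0.029 over 10 genes. At an unadjusted p under 0.05, 2 of the 10 were reached as higher and 3 as lower. Of all genes tested, 4.49% were reached as higher and 9.76% as lower (14.3% in either direction). EdgeR called 1.64% of all genes tested and 0 of these 10 genes. Chgb, a granin of the granule core and the most abundant of them, was at 186 and 182 CPM in WT and at 218 and 291 CPM in Vil-CREPTKO. Both Vil-CREPTKO libraries were above WT, replicate 2 by more than replicate 1 (0.47, SE 0.17, adjusted p 0.235 in edgeR), so that the value was 0.66 without replicate 1 and 0.25 without replicate 2 of that group. Chga was at 70.0 and 63.3 CPM against 69.8 and 84.3 CPM, with overlap (0.21, SE 0.13, adjusted p 0.550 in edgeR). It was 0.34 without Vil-CREPTKO replicate 1 and 0.071 without replicate 2.

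The secretogranins Scg2 and Scg3, which help to load and form granules, lay above WT in both Vil-CREPTKO libraries. Scg2 was at 4.39 and 4.49 CPM in WT and at 5.87 and 6.76 CPM in Vil-CREPTKO (0.51, SE 0.22, adjusted p 0.335 in edgeR). Scg3 was at 1.06 and 0.610 CPM against 1.50 and 1.49 CPM (0.84, SE 0.43, adjusted p 0.435 in edgeR), and its value was 1.29 without WT replicate 1 and 0.50 without WT replicate 2. Scg5, the chaperone of a prohormone convertase, went the other way, its counts being 74 and 66 in WT but 34 and 7 in Vil-CREPTKO. Its log2 fold change of -1.61 (SE 0.67, adjusted p 0.323 in edgeR) rested on the low replicate 2 of Vil-CREPTKO, since it was -0.83 without that library and -3.27, called at an adjusted p of 0.0279, without the other.

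The genes that process prohormones lay near WT. Pcsk1, the convertase that cuts them, was at 11.8 and 12.2 CPM in WT and at 10.5 and 11.7 CPM in Vil-CREPTKO (-0.11, SE 0.17, 95% interval -0.49 to 0.27), or -0.037 without Vil-CREPTKO replicate 1. Cpe, the carboxypeptidase that trims the cut ends, was between 16.4 and 17.6 CPM in all 4 libraries (0.051, SE 0.15, 95% interval -0.28 to 0.39). Pcsk1n, an inhibitor of the convertase, was at 0.646 and 0.792 CPM against 0.805 and 0.367 CPM (-0.30, SE 0.55). The sign of Pcsk1n was not stable, being -0.97 without Vil-CREPTKO replicate 1 but 0.17 without replicate 2. Its exons overlap Eras on the opposite strand, which had at most 1 count in a library.

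Cplx2 and Slc18a1, genes of release, lay below WT in both Vil-CREPTKO libraries. Cplx2 (chr13:54371349-54383917, plus strand), a complexin of the vesicle fusion machinery, was at 5.64 and 6.20 CPM in WT and at 2.09 and 3.50 CPM in Vil-CREPTKO. The groups were well apart, and the log2 fold change was -1.08 (SE 0.29, 95% interval -1.75 to -0.41, adjusted p 0.111 in edgeR). It was called in 4 of the 12 alternatives (DESeq2 at an adjusted p of 0.0311, no filter, the likelihood ratio test and without Vil-CREPTKO replicate 2), and ran from -1.49 to -0.76. Slc18a1, the vesicular monoamine transporter that loads serotonin into granules of enterochromaffin cells, was at 8.85 and 11.5 CPM in WT and at 7.06 and 5.68 CPM in Vil-CREPTKO. Both Vil-CREPTKO libraries were below WT (-0.68, SE 0.22, adjusted p 0.176 in edgeR), while Tph1, of the same cells, lay above WT in both. The Slc18a1 value was -0.85 without WT replicate 1 and -0.47 without WT replicate 2.

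The surface genes overlapped between the groups. Gfra3, a receptor of the GDNF family, was at 2.78 and 2.28 CPM in WT and at 1.63 and 2.63 CPM in Vil-CREPTKO (-0.24, SE 0.34). Trpa1, the irritant-gated channel of enterochromaffin cells, was at 5.50 and 5.40 CPM against 3.73 and 7.43 CPM. The Vil-CREPTKO libraries lay on either side of WT, and its difference of 0.035 (SE 0.32) had no stable sign.

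**Figure D3:**
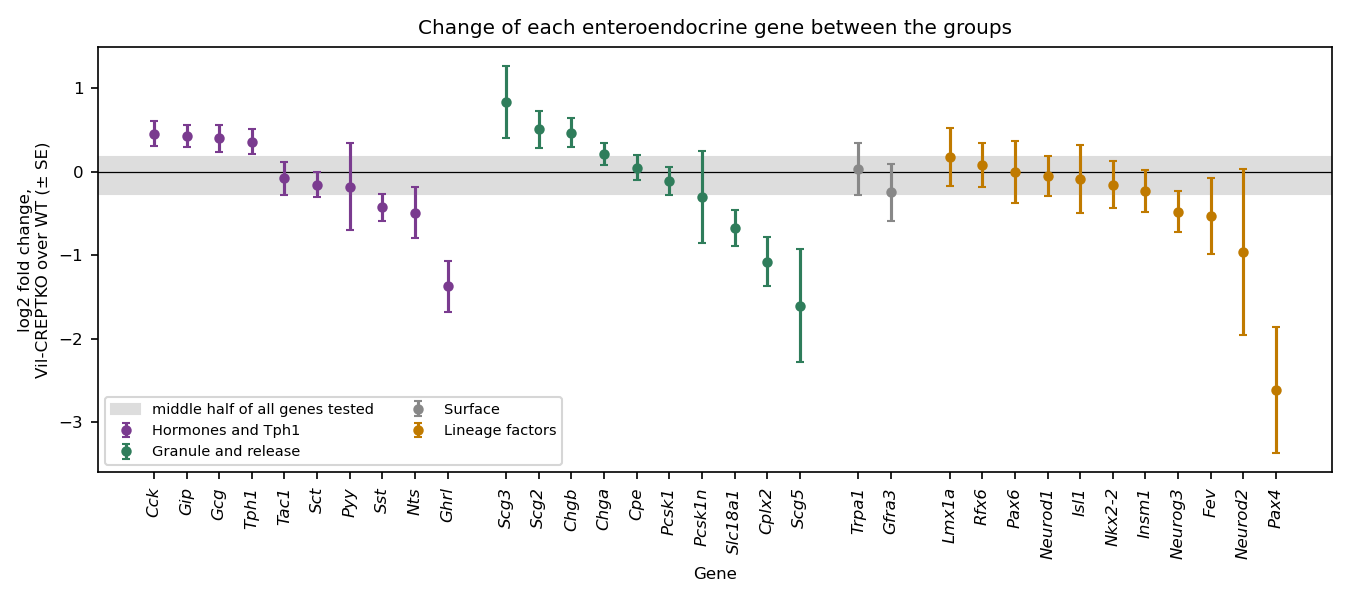
Log2 fold change of Vil-CREPTKO over WT for each of the 33 enteroendocrine genes with its standard error (edgeR, 2 libraries per group), coloured by role and ordered by value within each role. The grey band holds the middle 50% of all 17504 genes tested, from -0.27 to 0.18. Hormone and granule genes fall on both sides of the band, from -1.61 (Scg5) to 0.84 (Scg3), while the lineage factors lie within or below it, down to -2.62 (Pax4).

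Of the 11 lineage factors, 0 were called, and at an unadjusted p under 0.05, 1 was reached, Pax4, lower (9.09%, against 14.3% of all genes). The log2 fold change was negative for 9 of them and positive for Rfx6 and Lmx1a, with a median of -0.15. Of all genes tested, 50.9% were negative. The signs of Neurod1, Neurod2, Pax6, Nkx2-2, Isl1, Rfx6 and Lmx1a turned with some library left out, and those of Pax6 and Rfx6 also turned with another scaling. The study describes Neurog3, Nkx2-2 and Pax6 among differentiation genes downregulated in Vil-CREPTKO crypts, from RNA-seq or quantitative RT-PCR. Here their log2 fold changes were -0.48, -0.15 and -0.0041, and the groups overlapped at Nkx2-2 and Pax6. Their direction here is not taken as independent evidence.

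Pax4 (chr6:28442334-28449353, minus strand), a factor of early endocrine progenitors, was counted 44 and 39 times in WT but 10 and 2 times in Vil-CREPTKO. The groups did not overlap, and the log2 fold change was -2.62 (SE 0.76, 95% interval -4.34 to -0.90, adjusted p 0.133 in edgeR). At counts this low its size ran from -4.27 without Vil-CREPTKO replicate 1 to -1.83 without replicate 2. It was called in 3 of the 11 alternatives in which it could be tested, with DESeq2 not among them.

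Neurog3 (chr10:62133090-62134763, plus strand), which starts the lineage, was at 4.49 and 4.41 CPM in WT and at 3.06 and 3.32 CPM in Vil-CREPTKO. Replicates were close and the groups did not overlap, with a log2 fold change of -0.48 (SE 0.25, 95% interval -1.04 to 0.080, adjusted p 0.433 in edgeR) that lay between -0.57 and -0.42 in all 12 alternatives. Its exons overlap Fam241b on the opposite strand, whose counts were 970 and 988 in WT but 889 and 1096 in Vil-CREPTKO, so a part of these reads may be counted to either gene.

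Neurod1, Insm1, Nkx2-2 and Rfx6, which act after Neurog3, differed between the groups by less than their standard errors. Neurod1 was at 4.04 and 4.53 CPM in WT and at 4.004 and 4.28 CPM in Vil-CREPTKO (-0.049, SE 0.24, 95% interval -0.59 to 0.49), and its exons overlap Cerkl, which had 1 to 19 counts in a library. Insm1, a zinc-finger factor of endocrine progenitors, was at 4.54 and 5.18 CPM against 3.54 and 4.75 CPM (-0.23, SE 0.25), with -0.038 without Vil-CREPTKO replicate 1 and -0.45 without replicate 2. Nkx2-2, a homeodomain factor, was at 4.41 and 3.45 CPM against 3.01 and 4.05 CPM (-0.15, SE 0.28), and Rfx6 at 4.45 and 3.80 CPM against 5.06 and 3.69 CPM (0.084, SE 0.26). In all 4 the groups overlapped.

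The remaining factors had fewer counts and wider errors. Pax6 was at 1.31 and 1.40 CPM in WT and at 1.20 and 1.51 CPM in Vil-CREPTKO (-0.0041, SE 0.37), and Isl1 at 2.39 and 1.40 CPM against 2.21 and 1.36 CPM (-0.089, SE 0.41). Fev and Lmx1a, both linked to enterochromaffin cells, differed in sign: Fev was at 1.29 and 2.15 CPM against 0.805 and 1.57 CPM (-0.53, SE 0.46) and Lmx1a at 2.02 and 1.44 CPM against 2.00 and 1.91 CPM (0.18, SE 0.34). With WT replicate 2 left out the log2 fold change of Fev was -0.12, and leaving out Vil-CREPTKO replicate 2 gave -1.09. Neurod2, a relative of Neurod1, was counted 53 and 4 times in WT but 7 and 20 times in Vil-CREPTKO. Libraries of the same group thus differed more than the groups did, and its log2 fold change of -0.96 (SE 1.0) became 1.78 without WT replicate 1.

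Hormones and lineage factors were next set against each other. By the median gene they did not part: the median log2 fold change was -0.12 over the 10 hormone genes and -0.15 over the 11 factors, a difference of 0.036 against a pooled SD between replicates of 0.20. By the mean gene the difference was 0.34, with means of -0.10 and -0.44, and the factor mean was pulled down by Pax4 and Neurod2, the factors with the fewest counts. Leaving out single libraries moved the difference of medians between -0.12 and 0.28.

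By summed CPM the groups did not overlap. The 10 hormone genes summed to 222 and 211 CPM in WT and to 258 and 246 CPM in Vil-CREPTKO, while the 11 factors summed to 30.8 and 28.7 CPM against 25.3 and 26.9 CPM. The ratio of the sums was 7.19 and 7.35 in WT but 10.2 and 9.14 in Vil-CREPTKO. Gip made up most of the hormone difference in CPM: without it the hormones summed to 130.2 and 129 CPM in WT and to 133 and 137 CPM in Vil-CREPTKO, and the ratio was 4.22 and 4.51 against 5.25 and 5.09. In TPM, which is per length and not TMM-scaled, the hormone sums overlapped, being 646 and 571 in WT but 592 and 645 in Vil-CREPTKO. The factor sums in TPM were 29.0 and 25.8 against 17.4 and 22.5, and the ratio was 22.2 in both WT libraries against 34.1 and 28.7, so the higher hormone sum held in CPM and not in TPM, while the lower factor sum and the higher ratio were seen on both scales. These ratios are given as values with no test, since the smallest p that 2 libraries against 2 allow is 0.333.

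**Figure D4:**
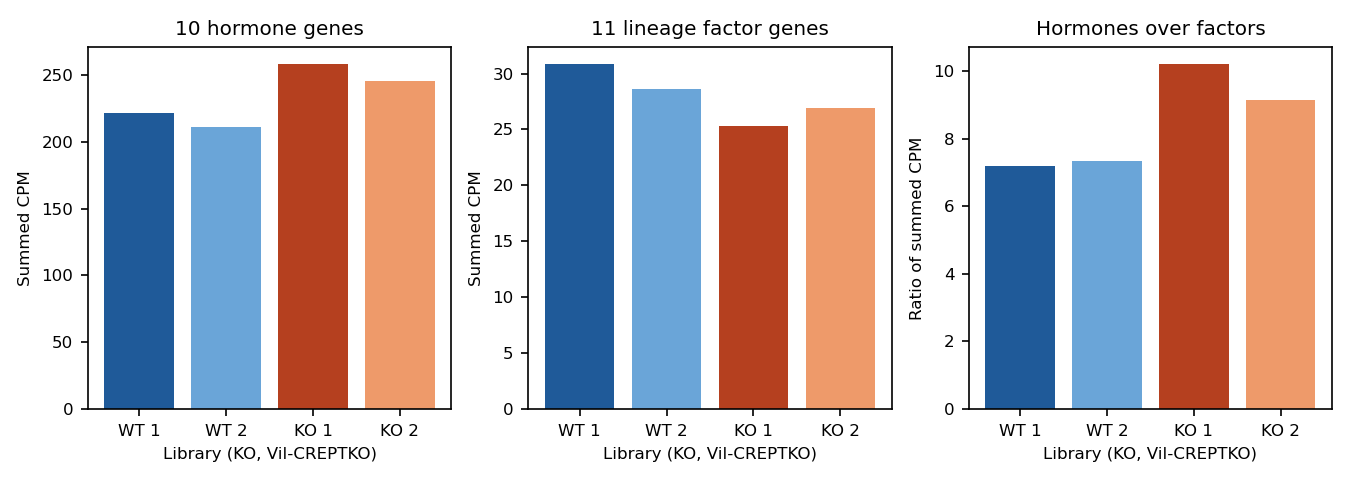
Summed TMM-scaled CPM of the 10 hormone genes (left) and the 11 lineage factor genes (middle) and the ratio of the sums (right) in each library, with KO standing for Vil-CREPTKO. Hormone sums are 211 to 222 CPM in WT and 246 to 258 CPM in Vil-CREPTKO, factor sums are 28.7 to 30.8 CPM and 25.3 to 26.9 CPM, and the ratio is 7.19 to 7.35 and 9.14 to 10.2; in TPM the hormone sums of the groups overlap.

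Further genes of the enteroendocrine programme gave the wider setting. Of 70 such genes, 55 were tested and 0 were called by edgeR, against 1.64% of all genes tested. At an unadjusted p under 0.05, 8 were reached as lower and 0 as higher. This was 14.5% of them, near the 14.3% of all genes reached in either direction (9.76% lower and 4.49% higher). DESeq2 called 1, Celf3, lower, where it called 1.79% of all genes lower. The median log2 fold change was -0.11, with 37 negative and 18 positive, against 50.9% negative among all genes tested. Among other endocrine and secretory factors, 14 of 15 tested were negative with TMM scaling (median -0.18), where 50.9% of all genes tested were negative. At an unadjusted p under 0.05, 1 of the 15 was reached as lower (6.67%, against 9.76% of all genes). Among 19 other genes of release and amine synthesis (median -0.085), the most abundant was Ddc, the decarboxylase that completes serotonin synthesis, at 133 and 166 CPM against 199.7 and 178 CPM (0.34, SE 0.16, adjusted p 0.379 in edgeR).

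Notch signalling holds progenitors back from the secretory fates. The 7 genes listed with it, receptors, ligands and Hes factors, had a median of -0.072, and their levels are not a measure of its activity. Hes6, the most abundant of the list, was at 51.1 and 46.2 CPM in WT and at 37.2 and 38.7 CPM in Vil-CREPTKO (-0.36, SE 0.12, adjusted p 0.203 in edgeR). Its level is not read here as more or less Notch restraint. Nutrient sensors were tested for 9 of 16 genes (median 0.011), led by the glucose transporter Slc5a1, which enterocytes also express, at 2400 and 3133 CPM against 3845 and 2578 CPM. Other hormone genes were tested for 5 of 12 (median -0.11), led by Nucb2 at 8.46 and 8.78 CPM against 8.79 and 7.15 CPM. Insl5, the hormone of colonic L cells, had 0 counts in all 4 libraries, which allows at most 0.0588 to 0.0690 CPM.

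Markers of other tissues were read because several of the 33 genes are also used by pancreatic islets, neurons or mast cells. The 8 exocrine pancreas genes all had a positive log2 fold change, with a median of 1.36, and summed to 32.1 and 21.1 CPM in WT and to 74.6 and 40.3 CPM in Vil-CREPTKO; DESeq2 called 4 of them (Prss2, Cel, Amy2a1 and Pnlip) and edgeR 0. The islet genes Ins1, Ins2, Iapp and Ppy stayed under 2 CPM each and summed to 2.59 and 1.42 CPM in WT and to 1.70 and 0.916 CPM in Vil-CREPTKO. In TPM they summed to 1.91 to 5.90, where Sst alone had means of 92.5 in WT and 61.3 in Vil-CREPTKO. Of 13 enteric neuron and glia genes, Vip and Sox10 had 0 counts in every library, Elavl4 was at or near 0, and the sum was 3.94 to 6.32 CPM. Of the 9 mast cell genes, 7 were tested and all 7 were negative (median -0.92), with a sum of 91.8 and 55.1 CPM in WT and 54.1 and 43.4 CPM in Vil-CREPTKO, mostly from Kit and Mcpt1, and with Tpsab1 at 0. The part of pancreatic or mast cell RNA in the differences above was not tested.

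The tissue label was checked in the same way. Crypt epithelium was present, with Epcam at 1270 to 1411 CPM, Olfm4 at 1127 to 1721 CPM and Lgr5 at 10.95 to 18.7 CPM, but so were enterocyte genes, such as Alpi at 1278 to 1712 CPM. The 11 enterocyte genes summed to 19730 and 25790 CPM in WT and to 32250 and 19850 CPM in Vil-CREPTKO, without separation of the groups. Proximal genes were high (Gata4 at 203 to 257 CPM), whereas Fabp6 of the ileum was under 1 CPM and Fgf15 of the ileum and Car1 of the colon had 0 counts. The listed distal genes were not all scarce, however. Slc51a, the most abundant of the ileum list, was at 94.7 and 132 CPM in WT and at 122 and 106 CPM in Vil-CREPTKO. These levels were similar between the groups, but Cubn (58.2 and 151 CPM in WT, 43.9 and 13.9 CPM in Vil-CREPTKO) and Muc4 (107.7 and 70.1 CPM against 15.2 and 48.9 CPM), listed as distal genes, were lower in both Vil-CREPTKO libraries without passing the edgeR threshold (adjusted p 0.131 and 0.150). Several hormones differ in level along the intestine, and the part of the sampled stretch in the hormone differences was not tested.

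**Figure D5:**
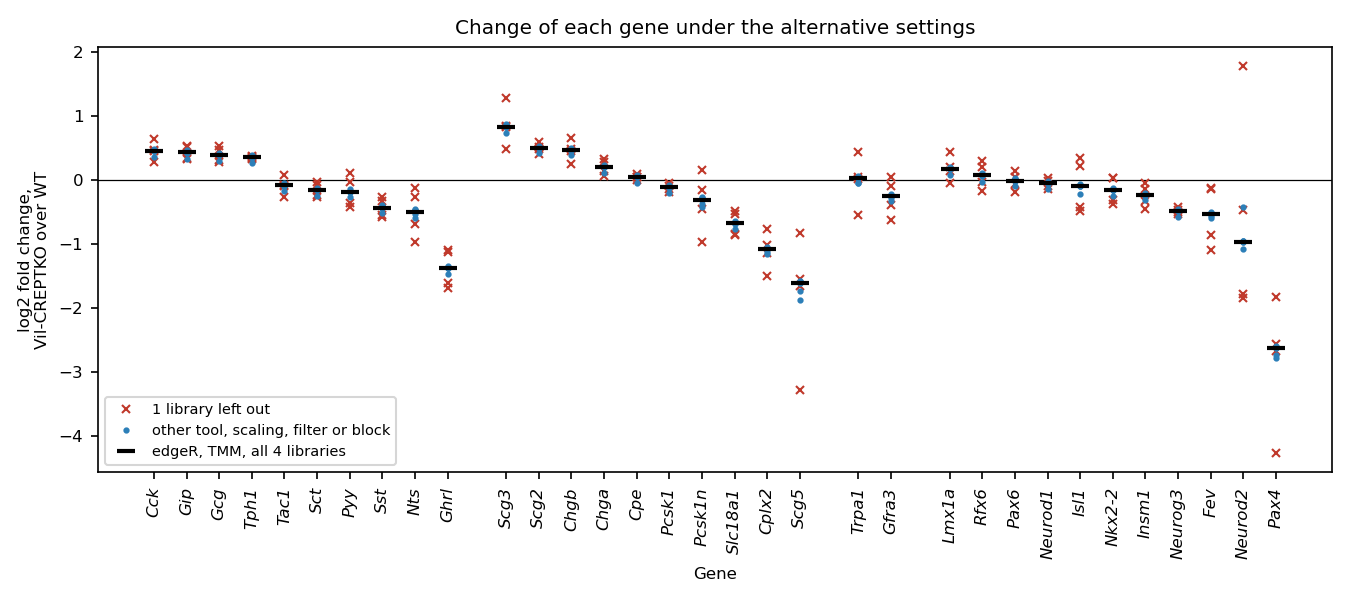
Log2 fold change of each enteroendocrine gene (Vil-CREPTKO over WT) with all 4 libraries (black bars), with another tool, scaling, filter or block (blue points) and with 1 library left out (red crosses). Of the 33 genes, 20 kept their sign in every setting, among them Ghrl (-1.68 to -1.09), Cplx2 (-1.49 to -0.76) and Gip (0.33 to 0.54), while Neurod2 ran from -1.85 to 1.78.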

How the data were processed

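RNA-seq had been performed on 2 WT and 2 Vil-CREPTKO crypt libraries. The deposited values were whole-number read counts per gene, which the authors made with Bowtie2 and RSEM on GRCm38.p6 (versions not given in the sources used here); the submitters' processing notes also name CASAVA 1.8. The rule that turned RSEM output into whole counts, the annotation and the strand setting are not given in the sources used here. Groups came from sample titles. Symbols, coordinates and exon lengths came from GENCODE M21, promoter windows from RefSeq (GRCm38.p6). The 380 rows without a gene name were kept.

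Counts were filtered with filterByExpr, scaled by TMM and tested in R 4.3.3 with edgeR 4.0.16 (glmQLFit, glmQLFTest, group as the only term, two-sided, Benjamini-Hochberg over 17504 genes). Calls needed an adjusted p under 0.05 and an absolute log2 fold change over 1. The standard error was the size of the log2 fold change over the square root of F. A count of 0 allowed at most 3 counts, 0.0588 to 0.0690 CPM, for counting error only. Total counts were 47241049 to 49369315 per library, and the common biological coefficient of variation was 0.188. DESeq2 1.42.0, other scalings and filters, a likelihood ratio test, a replicate block and each library left out were the alternatives. Fits were tested on simulated data. The named genes were Rprd1b, all 33 enteroendocrine genes and, for each further list, any gene with an adjusted p under 0.05 or else the most abundant gene; others were named after their values were seen. The values of some list genes are not given in the text. The 33 genes and all lists were chosen with earlier results of these data known.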

Additional observations from a re-analysis of the deposited data

How the results depend on the processing

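Of the 33 enteroendocrine genes, 20 kept the sign of their log2 fold change in all alternatives in which they were tested, 29 were never called, and Ghrl, Cplx2, Pax4 and Scg5 were called lower in some. The number called lower was 0 with edgeR's quasi-likelihood test, 2 with DESeq2, 1 with library size scaling, 3 without the filter on low counts, 3 with the likelihood ratio test and 0 to 2 with a library left out. For the further enteroendocrine genes (alternatives added after seeing the data) the number called lower was 0, and 1 with DESeq2, 3 without the filter, 2 with the likelihood ratio test and 0 to 1 with a library left out. Over all genes, 52 were called higher, against 89 with DESeq2, 163 without the filter, 146 with the likelihood ratio test and 62 to 135 with a library left out. Called lower were 235, against 379 with library size scaling, 450 without the filter, 418 with the likelihood ratio test, 400 without the fold change threshold and 225 to 308 with a library left out. The hormone minus factor difference of 0.036 was 0.34 by the mean and -0.12 to 0.28 with a library left out. The cause was not tested.

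Signs turned for Pax6 (0.013 with DESeq2 and with RLE scaling, 0.029 with upper-quartile scaling), and with library size scaling for Rfx6 (-0.023), Cpe (-0.040) and Trpa1 (-0.036). With a library left out the log2 fold change ran from -0.42 to 0.11 for Pyy, -0.26 to 0.076 for Tac1, -0.13 to 0.039 for Neurod1, -1.85 to 1.78 for Neurod2, -0.18 to 0.15 for Pax6, -0.38 to 0.041 for Nkx2-2, -0.48 to 0.35 for Isl1, -0.16 to 0.30 for Rfx6, -0.042 to 0.44 for Lmx1a, -0.97 to 0.17 for Pcsk1n, -0.62 to 0.052 for Gfra3 and -0.54 to 0.44 for Trpa1.

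The labels share replicate numbers, but with 2 pairs and a correlation of same-numbered deviations of 0.028 the numbers were not shown to pair the libraries. With the replicate block, 269 genes were called lower and 67 higher, 0 of the enteroendocrine genes were called, and the sign of Trpa1 turned (-0.042). A library left out leaves its group with 1 library, assumed to vary like the other group. With at least 10 counts in every library, Neurod2, Pax4 and Scg5 were not tested. Pyy, Neurod2, Pax4, Scg5, Scg3 and Pcsk1n were near or under 1 CPM.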

Other observations

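Genes of the further enteroendocrine lists with the largest differences are given here as values, and were chosen after their values were seen. Celf3, an RNA-binding protein gene of endocrine and neural cells, was at 5.74 and 4.04 CPM in WT and at 1.86 and 2.65 CPM in Vil-CREPTKO (difference in log2 -1.11, SE 0.31, adjusted p 0.114 in edgeR). Prox1, a homeobox factor also used by enteroendocrine and tuft cells, was at 3.94 and 4.45 CPM against 1.73 and 2.32 CPM (-1.05, SE 0.29, adjusted p 0.114 in edgeR). In both genes the groups did not overlap.

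The short-chain fatty acid receptors Ffar2 and Ffar3, which L cells use to sense bacterial products, were lower in both Vil-CREPTKO libraries. Ffar3 was at 4.17 and 5.12 CPM in WT and at 2.76 and 1.20 CPM in Vil-CREPTKO (-1.23, SE 0.39, adjusted p 0.171 in edgeR), and was called without the filter on low counts and without Vil-CREPTKO replicate 1. Ffar2 was at 2.70 and 3.21 CPM against 1.61 and 1.47 CPM (-0.94, SE 0.31, adjusted p 0.186 in edgeR). Gcg, the hormone gene of the same L cells, was higher in both Vil-CREPTKO libraries. Enteroendocrine cells are not the only cells that may express these receptors, and leukocytes express Ffar2 as well. The 11 immune cell genes summed to 850 and 678 CPM in WT and to 638 and 552 CPM in Vil-CREPTKO, and their part in the Ffar2 values was not tested.

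Hdc, the enzyme that makes histamine in mast cells and enterochromaffin-like cells, was at 1.69 and 0.975 CPM in WT and at 0.621 and 0.489 CPM in Vil-CREPTKO (-1.26, SE 0.48, adjusted p 0.260 in edgeR). It is 1 of the 7 tested mast cell genes, all of which were negative.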
